A study of Mus musculus with 5 samples.

Results

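The proteasome genes encode the subunits, activators, inhibitor and dedicated assembly factors of the protease complex that degrades ubiquitin-tagged proteins. They were taken as the protein-coding mouse genes whose symbol is Psma, Psmb, Psmc, Psmd, Psme, Psmf or Psmg followed only by digits, which gave 48 of the 21627 protein-coding genes that RefSeq places on the 19 autosomes and the X chromosome. Binding of NKX2-1, the homeobox factor that specifies lung epithelial cells, was mapped at these genes by chromatin immunoprecipitation and sequencing (ChIP-seq). The tissue was lung of mice with the genotype Wildtype at postnatal day 10. The 4 immunoprecipitations used 1 antibody against NKX2-1 each, namely Abcam133737, Millipore07-601, Abcam76013 and Abcam133638. All 4 were compared with the same input, 1 library of chromatin without immunoprecipitation. Nuclei of whole lung were split into equal aliquots, sheared and pooled again before immunoprecipitation, so the nuclei were not sorted by cell type and the 4 libraries may share 1 chromatin pool.

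Each antibody had 1 library, and the labels name no replicate animals. No difference between antibodies or gene lists therefore has a test, and values are set side by side without p-values. In such bulk chromatin, strong occupancy in few cells and weak occupancy in many cells cannot be told apart. The 4 peak lists held 40877 (Abcam133737), 57763 (Millipore07-601), 41296 (Abcam76013) and 57891 (Abcam133638) peaks, from 43031331 to 46547989 tags per library after filtering, against 10653749 filtered input tags. Peaks that overlapped by at least 1 bp were merged over the lists into 68919 regions, of which 31606 held a peak of every antibody. In what follows, values of the 4 antibodies are given in the order Abcam133737, Millipore07-601, Abcam76013, Abcam133638, and fold means the enrichment of the peak summit over local background that the authors' peak caller reported.

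In the cell, the proteasome consists of a barrel-shaped 20S core, whose outer rings of alpha subunits gate the entry and whose inner rings of beta subunits carry the proteolytic sites, and of a 19S cap, whose ATPases unfold the substrate and whose other subunits bind and remove ubiquitin. Immune cells and cells exposed to interferon exchange the catalytic beta subunits for immunoproteasome forms and add the PA28 activator, which favours peptides for MHC class I. All cells of the lung need the core and the cap, and their genes are classed as housekeeping genes, controlled in many cells by the stress-responsive factors NFE2L1 and NFE2L2.

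Most proteasome genes had NKX2-1 peaks close by. Within 2 kb of a gene end, 32 of the 48 genes (66.7%) had a region with summits of all 4 antibodies, against 38.4% of all protein-coding genes. Within 10 kb the count was 38 (79.2%), against 54.3% of all genes. At least 1 antibody gave a peak within 2 kb at 44 genes (91.7%, all genes 57.2%), and within 10 kb at 46 (all genes 70.1%). The 2 genes without any peak within 10 kb of an end were Psma6, an alpha subunit, and Psma8, the alpha subunit of the testis proteasome. With single antibodies, 37, 43, 33 and 41 of the 48 genes had a peak within 2 kb, where all genes gave 44.7%, 51.1%, 43.8% and 54.6%.

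Many of these genes lie beside others, so the regions were separated by the gene they were nearest to. At 28 of the 48 genes (58.3%) the region of 4 antibodies within 2 kb was nearer to the proteasome gene than to any other protein-coding gene, against 33.3% of all genes. Within 10 kb, 31 genes (64.6%) had such an own region, against 43.3%. At 4 genes (Psma2, Psmb9, Psmc5 and Psmd13) every region of 4 antibodies within 2 kb was nearer a neighbour. Psma7, Psmb11, Psmg1 and Psmg3 had their only region of 4 antibodies between 2 and 10 kb away and nearer another gene. Psmc6 and Psmf1 had an own region in that belt, and 8 genes (Psma4, Psmb6, Psmb8, Psmc2, Psmd6, Psmd7, Psmd10 and Psmg2) had peaks of only 1 to 3 antibodies in any region within 10 kb.

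**Figure D1:**
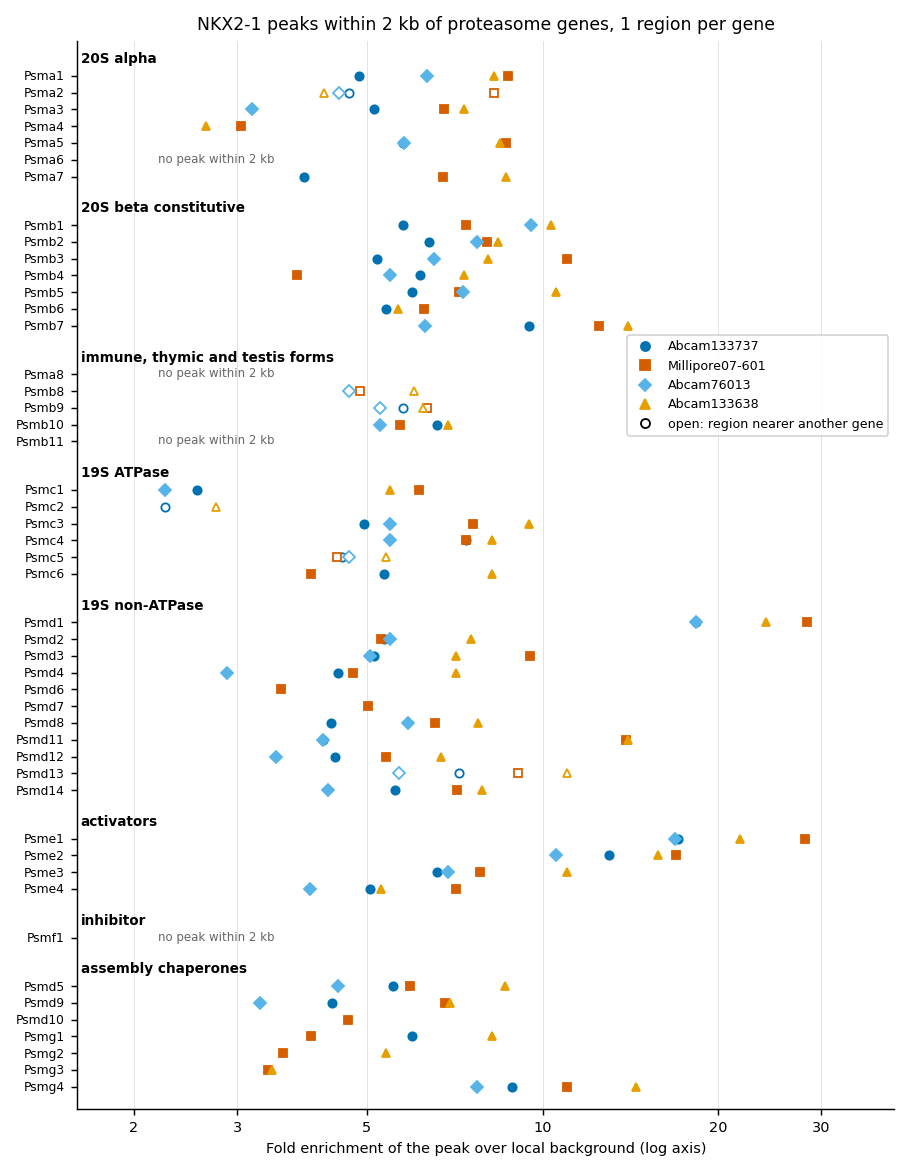
Fold of NKX2-1 peaks (log axis) at 1 region per proteasome gene within 2 kb of a gene end, chosen by the number of antibodies, then own regions before those nearer another gene, then the highest mean; each symbol is 1 antibody, open where the region is nearer another gene. Psmd1, Psme1 and Psme2 stand above every other gene with the same antibody, and 4 genes have no peak within 2 kb.

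High folds were few. Over the 28 genes with an own region within 2 kb, the mean fold of the best region ran from 4.12 at Psmc1 to 22.3 at Psmd1, with a median of 6.96 and quartiles of 5.86 and 8.12. The 7197 protein-coding genes with such a region had a median of 7.14. A mean fold of 10 or more was found at 5 of the 28 genes (17.9%), against 23.9% of all genes with an own region, and a mean under 8 at 20 (71.4%, all genes 60.3%). By antibody, the medians of the proteasome genes were 5.57, 7.40, 5.48 and 8.23, and those of all genes 5.97, 8.04, 5.89 and 8.65. The share of proteasome genes with a region thus lay above that of all genes while their typical fold did not.

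Promoters of 7 genes show where the summits fell at genes of different role, and a window of Psma6 shows a listed start that no peak reached. Each is the RefSeq sequence of assembly GRCm38.p6 from 250 bases before to 50 after a listed start, 5′ to 3′ on the gene's strand, with capitals over the bases from the first to the last of the 4 summits. The genes are the 6 with the highest mean percentile of fold whose 4 summits all lie in the window, and Psma6, whose second listed start was added after its values were seen. Coordinates are chr1:86064369-86064668 (plus strand) for Psmd1, chr14:55591052-55591351 (minus) for Psme2, chr13:34162714-34163013 (plus) for Psmg4, chr11:101315963-101316262 (plus) for Psme3, chr11:97703184-97703483 (plus) for Psmb3 and chr7:28050043-28050342 (minus) for Psmc4. Those of Psma6 are chr12:55383972-55384271 and chr12:55398575-55398874, both on the plus strand.
Psmd1: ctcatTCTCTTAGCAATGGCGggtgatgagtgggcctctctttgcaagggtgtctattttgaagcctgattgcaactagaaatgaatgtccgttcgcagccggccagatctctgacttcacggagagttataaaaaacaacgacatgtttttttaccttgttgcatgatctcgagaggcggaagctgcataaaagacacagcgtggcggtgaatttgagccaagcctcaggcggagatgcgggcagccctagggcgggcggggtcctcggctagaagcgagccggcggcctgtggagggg
Psme2: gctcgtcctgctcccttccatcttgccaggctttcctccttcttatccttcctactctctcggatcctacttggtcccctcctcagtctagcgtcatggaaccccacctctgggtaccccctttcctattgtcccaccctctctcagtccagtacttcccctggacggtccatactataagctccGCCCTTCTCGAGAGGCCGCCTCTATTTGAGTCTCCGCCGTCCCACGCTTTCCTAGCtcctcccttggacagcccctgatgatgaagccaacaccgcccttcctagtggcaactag
Psmg4: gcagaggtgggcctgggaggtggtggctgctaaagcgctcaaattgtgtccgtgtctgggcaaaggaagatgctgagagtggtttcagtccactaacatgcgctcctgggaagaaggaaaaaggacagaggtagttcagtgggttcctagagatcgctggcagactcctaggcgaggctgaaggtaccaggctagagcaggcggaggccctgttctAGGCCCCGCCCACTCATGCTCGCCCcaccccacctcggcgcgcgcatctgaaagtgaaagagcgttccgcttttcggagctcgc
Psme3: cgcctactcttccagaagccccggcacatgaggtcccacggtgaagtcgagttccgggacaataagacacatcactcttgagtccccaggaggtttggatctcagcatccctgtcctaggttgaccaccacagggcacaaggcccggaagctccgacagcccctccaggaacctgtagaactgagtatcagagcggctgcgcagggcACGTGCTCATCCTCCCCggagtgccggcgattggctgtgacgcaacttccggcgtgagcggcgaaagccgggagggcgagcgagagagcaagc
Psmb3: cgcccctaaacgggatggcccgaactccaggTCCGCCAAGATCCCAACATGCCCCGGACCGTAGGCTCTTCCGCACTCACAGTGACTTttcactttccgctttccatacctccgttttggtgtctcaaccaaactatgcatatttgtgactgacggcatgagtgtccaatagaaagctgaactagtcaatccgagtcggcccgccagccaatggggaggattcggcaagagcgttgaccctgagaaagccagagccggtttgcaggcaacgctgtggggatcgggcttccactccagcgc
Psmc4: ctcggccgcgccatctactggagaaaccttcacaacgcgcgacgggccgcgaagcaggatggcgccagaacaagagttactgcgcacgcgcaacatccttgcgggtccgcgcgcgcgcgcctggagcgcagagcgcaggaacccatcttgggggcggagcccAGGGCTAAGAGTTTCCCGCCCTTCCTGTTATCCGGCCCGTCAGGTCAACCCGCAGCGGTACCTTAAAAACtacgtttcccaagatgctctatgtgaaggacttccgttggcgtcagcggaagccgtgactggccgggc
Psma6, first start, no peak: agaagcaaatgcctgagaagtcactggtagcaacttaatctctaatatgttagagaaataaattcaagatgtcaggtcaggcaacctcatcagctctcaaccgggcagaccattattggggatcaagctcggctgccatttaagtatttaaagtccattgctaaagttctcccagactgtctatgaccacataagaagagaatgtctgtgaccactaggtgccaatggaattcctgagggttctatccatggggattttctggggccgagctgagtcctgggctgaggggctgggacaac
Psma6, second start: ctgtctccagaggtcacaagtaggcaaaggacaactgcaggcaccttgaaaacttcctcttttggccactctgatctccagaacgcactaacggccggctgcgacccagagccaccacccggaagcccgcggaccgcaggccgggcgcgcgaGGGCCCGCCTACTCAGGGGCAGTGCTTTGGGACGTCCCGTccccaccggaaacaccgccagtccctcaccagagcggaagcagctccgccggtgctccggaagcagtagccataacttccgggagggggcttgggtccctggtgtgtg

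In these windows the summits of the 4 antibodies lay close together. The capitals span 16 bases at Psmd1, 17 at Psme3 and 25 at Psmg4, and 56, 57 and 70 at Psme2, Psmb3 and Psmc4. At Psmd1 and Psmb3 the summits lay in the upstream part of the window, and at Psmg4, Psme3 and Psme2 within 65 bases of the start. The Psma6 window without a peak had a GC content of 46.7%, the lowest of those printed, and its second window had 65%.

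Among the alpha subunits of the core, 4 of 7 genes had a region of all 4 antibodies within 2 kb (all genes 38.4%). At 3 of these, Psma1, Psma3 and Psma5, it was an own region (all genes 33.3%). Psma5 had folds of 5.77, 8.67, 5.78 and 8.46 at 99 bp inside the gene (chr3:108256692-108257219). Psma1 had 4.84, 8.73, 6.34 and 8.26 at 78 bp upstream of its start. The antibodies ordered themselves alike at both genes, with Millipore07-601 and Abcam133638 above the other two. Psma4 had only a weak peak of 2 antibodies (3.05 with Millipore07-601 and 2.66 with Abcam133638). Psma7 had 3 antibodies at its start (3.91, 6.75, none and 8.65), and its region of all 4 lay 5.32 kb upstream, inside the neighbouring gene Ss18l1, at a mean fold of 15.0.

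Psma6 and Psma3 depend on where the gene is taken to begin. The annotated span of Psma6 begins at a start without a peak, but RefSeq lists a second start inside the gene. There, 14.5 kb from the outer end, a region of all 4 antibodies was found (chr12:55398493-55398895, folds 5.35, 6.95, 4.67 and 8.62), so Psma6 was without a peak only by the distance to the gene ends. Psma3 had its own region 604 bp outside the annotated end (folds 5.15, 6.79, 3.19 and 7.34), which is 5944 bp upstream of its listed start. At that listed start only 2 antibodies gave a peak, and the highest region of the locus (6.67, 10.0, 11.7 and 15.9) lay 16.1 kb inside.

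The constitutive beta subunits had regions at nearly every gene. Of 7 genes, 6 had an own region of 4 antibodies within 2 kb (all genes 33.3%). Their mean folds lay between 5.70 and 10.6, with a median of 7.73. Psmb7, the trypsin-like catalytic subunit, had 9.47, 12.5, 6.29 and 14.0 at 58 bp outside its end (chr2:38643850-38644179). Psmb5, the chymotrypsin-like subunit that bortezomib inhibits, had 5.97, 7.19, 7.31 and 10.6 at 251 bp upstream (chr14:54618000-54618478). Psmb6, the caspase-like subunit, had peaks of 3 antibodies at 43 bp (5.40, 6.27, none with Abcam76013 and 5.67). The 3 catalytic subunits of the standard core thus all had peaks at an end, with Psmb6 the only constitutive beta gene that lacked 1 antibody there.

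The structural beta subunits were similar in level. Psmb1 had 5.76, 7.40, 9.54 and 10.3 at 73 bp, and a stronger region 1503 bp away (9.26, 9.31, 10.1 and 12.1) was nearer Tbp, which encodes the TATA-binding protein. Psmb2 had 6.38, 8.04, 7.71 and 8.41 at 74 bp, Psmb3 had 5.21, 11.0, 6.53 and 8.07 at 193 bp, and Psmb4 had 6.18, 3.81, 5.48 and 7.33 at 25 bp. Of these 4, Psmb4 was the one at which Millipore07-601 gave the lowest fold.

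The immunoproteasome and tissue-restricted forms are Psma8, Psmb8, Psmb9, Psmb10 and Psmb11. Of these 5 genes, 2 had a region of 4 antibodies within 2 kb (all genes 38.4%) and 1, Psmb10, had an own one (all genes 33.3%), so neither count stands apart from the background. Psmb10, which replaces Psmb7, had 6.59, 5.71, 5.28 and 6.90 at 1.24 kb inside the gene, while the region at its start held only Millipore07-601 (5.36) and Abcam133638 (4.42). Psmb9, which replaces Psmb6, had 5.76, 6.35, 5.28 and 6.25 at a region 136 bp from its start and 89 bp from Tap1, a peptide transporter gene that starts 226 bp away on the other strand. Psmb8, which replaces Psmb5, had 1 antibody at its start (3.66 with Abcam133638). A region of 3 antibodies 517 bp upstream (none, 4.86, 4.67 and 6.03) was nearer the other end of Tap1.

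Pairs of exchanged subunits can be set side by side. Mean folds were 10.6 for Psmb7 and 6.12 for Psmb10 and, at regions of 3 antibodies, 5.78 for Psmb6, against 5.91 at the region that Psmb9 shares with Tap1. Psmb5 had a mean of 7.76, and Psmb8 had no own region of more than 1 antibody. Psmb11, the thymic beta subunit, lies beside Psmb5, and its only region of 4 antibodies was that of Psmb5 at 7.06 kb.

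At the 6 ATPases of the cap, 4 genes had a region of all antibodies within 2 kb (all genes 38.4%), and 3 of them an own region (all genes 33.3%). Psmc4 had 7.41, 7.40, 5.48 and 8.19 at 39 bp upstream of the start (chr7:28049944-28050493), and Psmc3 had 4.94, 7.61, 5.48 and 9.48 at 250 bp inside an end. Psmc1 was the lowest of all 28 genes, with 2.57, 6.15, 2.26 and 5.48. Its pileups of 24, 30, 21 and 29 tags were closer to each other than its folds were, as the local background read back from fold and pileup was 9.74 and 9.72 for Abcam133737 and Abcam76013 but 5.04 and 5.47 for the other two. Psmc6 had 3 antibodies at its start (5.35, 4.02, none and 8.19) and a higher own region 4.22 kb away (6.70, 12.2, 7.73 and 11.5). Psmc2 had 2 antibodies at its start, both low (2.26 and 2.76), at a region 32 bp from Psmc2 and 21 bp from Dnajc2. Psmc5 had a region of 3 antibodies 27 bp from its start, and its region of 4 lay inside the neighbour Ftsj3, whose start is 101 bp away.

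The non-ATPase subunits of the cap held the strongest single site. Psmd1, which encodes the large scaffold subunit Rpn2, had folds of 18.3, 28.3, 18.3 and 24.1 at 238 bp upstream of its start (chr1:86064163-86064825). The pileups at the summit were 88, 133, 89 and 111 tags, with exact 95% Poisson intervals, which cover counting error only, of 70.6 to 108, 111 to 158, 71.5 to 109 and 91.3 to 134. Its summits stood 15 bp apart at most, and its fold percentile within each list was between 97.2 and 98.3. Among the 7197 genes with an own region, Psmd1 ranked at percentile 98.2 by mean fold. The nearest other gene lay 8.93 kb from this region, so it is not a shared promoter by the distance used here.

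The rest of that group had ordinary folds. Within 2 kb, 9 of 11 genes had a region of all 4 antibodies (all genes 38.4%). An own region was present at 8 of them (all genes 33.3%), with a median mean fold of 6.18. Psmd11, which encodes the cap subunit Rpn6, had 4.21, 13.9, 4.22 and 14.0 at 209 bp upstream (chr11:80428230-80428749). Its pileups were 40, 69, 40 and 65 tags, and the background was 9.74 and 9.72 for Abcam133737 and Abcam76013 against 5.04 and 4.71 for Millipore07-601 and Abcam133638. The 2 antibodies with the higher background are those with the lower fold. Psmd11 had 3 further own regions within 2 kb, 1 at 727 bp inside its start (mean fold 5.17) and 2 beyond its far end (6.31 and 6.04).

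Psmd14, the deubiquitinase of the cap, had 5.59, 7.14, 4.29 and 7.88 at 73 bp, and Psmd4, a ubiquitin receptor, had 4.47, 4.74, 2.88 and 7.11 at 157 bp. Psmd3, Psmd2, Psmd8 and Psmd12 had mean folds of 6.71, 5.92, 6.14 and 5.00. The 4-antibody region of Psmd13 (7.20, 9.10, 5.68 and 11.0) lay 488 bp upstream, inside Sirt3, whose start is 85 bp from that of Psmd13. Within 2 kb, Psmd6 and Psmd7 had a peak of Millipore07-601 only, at folds of 3.57 and 5.02. Psmd7 had a further own region 3.48 kb away with Abcam133737 (3.71) and Millipore07-601 (5.29).

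All 4 activator genes had an own region of every antibody within 2 kb (all genes 33.3%), and 2 of them stood high. Psme1, the alpha subunit of PA28, had folds of 17.1, 28.1, 16.8 and 21.8 at 526 bp upstream of its start (chr14:55577723-55578600), with pileups of 82, 132, 82 and 100 tags. Psme2, the beta subunit of PA28, had 13.0, 16.9, 10.6 and 15.7 at 65 bp upstream (chr14:55590791-55591887), with pileups of 62, 79, 51 and 72 tags. With every antibody, both genes lay above the third quartile of the proteasome genes' mean folds, 8.12. By mean fold they ranked at percentiles 97.8 and 91.1 of the genes with an own region. Psme3, the nuclear PA28 gamma subunit, had 6.59, 7.83, 6.90 and 11.0 at 35 bp, and Psme4, the PA200 activator, had 5.07, 7.11, 4.00 and 5.30 at 441 bp inside the gene.

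Psme1 and Psme2 lie in 1 locus on chromosome 14, with Emc9 between them. The Psme1 region lay 1.02 kb from Fitm1, and a second region 1.91 kb upstream of Psme1 (8.65, 9.10, 5.41 and 9.48) was inside Fitm1. The Psme2 region lay 547 bp from Rnf31, a ubiquitin ligase gene that starts 641 bp from Psme2 on the other strand. A further region of 4 antibodies stood at the start of Emc9 (5.76, 7.40, 4.87 and 11.4). The 2 highest of these regions were those nearest to the PA28 genes.

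**Figure D2:**
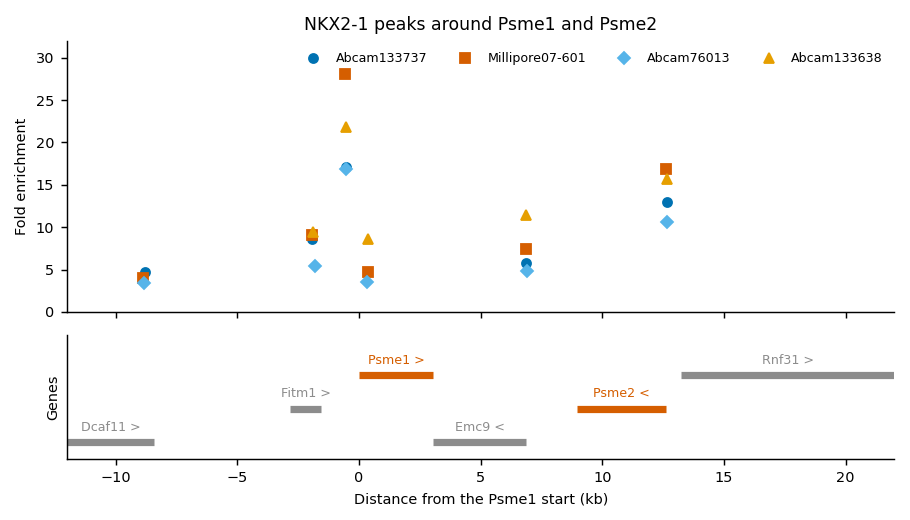
Peaks of the 4 antibodies around Psme1 and Psme2 by distance from the Psme1 start (kb); upper panel, fold of each peak at its summit, lower panel, gene spans with their strand. The highest folds stand 526 bp before Psme1 (16.8 to 28.1) and at the start of Psme2 (10.6 to 16.9).

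Psmf1, the inhibitor PI31, had no peak within 2 kb of its annotated ends. Its region of 4 antibodies (4.47, 4.86, 5.48 and 6.90) lay 2.86 kb inside an end and 31.5 bp upstream of a listed start. A second own region, 1.15 kb downstream of that start, had 5.97, 8.88, 4.87 and 7.54. As at Psma6, the listed start and the annotated end disagreed about whether the gene counted.

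Of the 7 assembly chaperones, 3 had a region of 4 antibodies within 2 kb (all genes 38.4%), all own regions (all genes 33.3%). All 7 had at least 1 antibody there (all genes 57.2%). With 3 of 7 genes, the count of regions is near the share of all genes, and no difference is read from it. Psmg4, a chaperone of the alpha ring, had 8.85, 11.0, 7.71 and 14.4 at 20 bp upstream (chr13:34162710-34163328). Psmd5 and Psmd9, chaperones of the cap's base, had 5.56, 5.92, 4.47 and 8.62 at 55 bp, and 4.35, 6.81, 3.29 and 6.94 at 1 bp. Psmg1, the partner of Psmg2, had 3 antibodies at its start (5.97, 4.02, none and 8.19), while Psmg2 and Psmg3 had 2 and Psmd10 had 1.

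The regions at proteasome genes were mostly regions at transcription starts. A start was listed for 40 of the 48 genes, and 22 of these (55%) had summits of all 4 antibodies within 300 bp of it, against 27% of the 17273 genes with a listed start. Of the 26 genes with a listed start and an own region within 10 kb, 20 (76.9%) had it within 300 bp of the start, against 56.2% of all such genes. The share within 300 bp was 91.4% for ribosomal protein genes and 81.8% for complex I genes, so it is not particular to proteasome genes. The median distance was 80.8 bp for proteasome genes and 195 bp for all genes. It was 43 bp for ribosomal protein genes and 77.8 bp for complex I genes. The 6 genes with their own region farther from the start were Psme1 and Psme4, with summits 526 and 441 bp away, and Psma3, Psmb10, Psmc6 and Psmd13, with summits over 1 kb away. Counted by side, the summit lay upstream of the start at 20 of the 26 (76.9%), against 60.3% of all such genes. The share was 85.7% for ribosomal protein genes and 77.3% for complex I genes, so it is not particular to proteasome genes. It lay downstream at Psma5, Psmb10, Psmd9, Psmd13, Psmd14 and Psme4. Exons and introns were not analysed here.

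**Figure D3:**
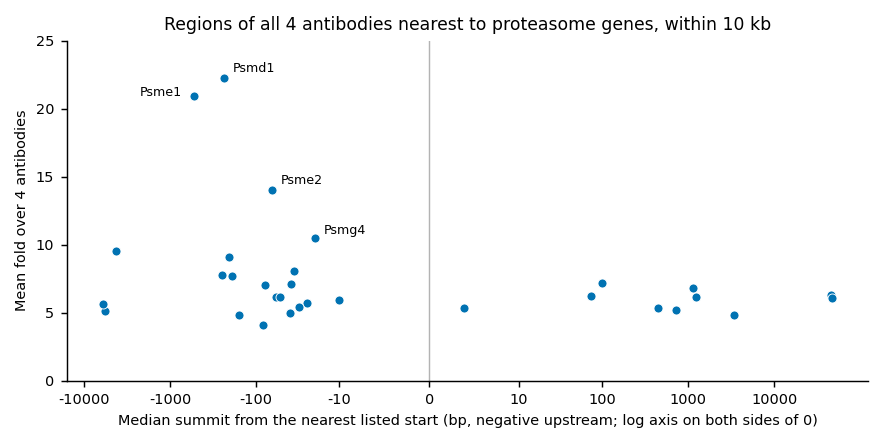
Own regions of all 4 antibodies within 10 kb of proteasome genes with a listed start: median summit from the nearest listed start (bp, negative upstream, log axis on both sides of 0) against the mean fold over the 4 antibodies. Most points lie within 300 bp of the start, and the highest mean folds, of Psmd1, Psme1 and Psme2, are all upstream.

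A divergent neighbour was close at 7 of the 40 genes with a listed start, counting only listed starts on the other strand within 1 kb. Gene ends that lie close without such a listed start, as those of Psmc2 and Dnajc2, are not in this count. The 7 were Psma2 with Mrpl32 (205 bp), Psma7 with Ss18l1 (19 bp), Psmb9 with Tap1 (226 bp), Psmc5 with Ftsj3 (101 bp), Psmd10 with Atg4a (196 bp), Psmd13 with Sirt3 (85 bp) and Psme2 with Rnf31 (641 bp). A region of 4 antibodies within 2 kb was present at 5 of the 7, beside 66.7% of all proteasome genes and 38.4% of all genes. That is near the share of the proteasome genes, and nothing about divergent pairs is read from it. At such pairs a region lies near both starts, and which gene it belongs to cannot be told apart here.

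Neighbours held several of the strong sites near proteasome genes. Over all 48 genes, 60 distinct regions of 4 antibodies lay within 10 kb, of which 36 were nearest to a proteasome gene and 24 to another gene. The median of the mean fold was 6.51 in the former and 7.99 in the latter. A mean of 10 or more occurred at 5 and 7 regions. The same values for other gene lists are not given here, so nothing particular to proteasome genes is read from them. The strongest in the second set were 2 regions inside Sort1 near Psma5 (20.1 and 14.9), the Ss18l1 region near Psma7 (15.0) and a region nearest Mrpl32, 5.50 kb from Psma2 (14.2). Counting by 10 kb alone would have put the Sort1 fold of 20.1 on Psma5, whose own region had a mean of 7.17.

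Among regions of exactly 3 antibodies near proteasome genes, Abcam76013 was most often the one missing. Of the 15 regions within 10 kb with exactly 3 antibodies, 11 (73.3%) lacked Abcam76013 and 2 (13.3%) lacked Abcam133737. Over the genome, regions of 3 antibodies lacked these in 44.0% and 46.5%. Psma7, Psmb6, Psmc5, Psmc6 and Psmg1 all had such a region without Abcam76013 at their start. Some of the others, as those near Psma5, Psmd5 and Psmd12, were nearer a neighbour, and several lay near Psma7. Psmc5 also had a region of all 4 antibodies within 2 kb, so these are counts of regions and not of genes. Without requiring Abcam76013, the count within 2 kb rose from 32 to 36 genes and the count of own regions from 28 to 34. That rule is looser for any gene list, and the share of all genes under it is not given here. No difference from all genes is therefore read from the rise. In regions of only 2 antibodies, Millipore07-601 with Abcam133638 was the pair at 13 of 20 (65%), and at 63.8% over the genome.

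Other housekeeping genes had NKX2-1 regions too. The cytosolic ribosomal protein genes had a region of 4 antibodies within 2 kb at 58 of 76 (76.3%) and the subunit genes of mitochondrial complex I at 29 of 38 (76.3%), beside 66.7% of the proteasome genes. Their median mean folds were 6.57 and 6.46. Genes of alveolar type 2 cells, the surfactant-producing epithelial cells in which NKX2-1 is active, had such a region at 11 of 12 (91.7%) with a median of 12.5. Within 300 bp of a listed start the shares were 66.1% for ribosomal protein, 61.8% for complex I and 66.7% for type 2 genes, beside 55% for proteasome genes.

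The lists were also cut to their strongest peaks. When only the 10000 highest folds of each list were kept, 3 of the 48 proteasome genes (6.25%) still had all 4 antibodies within 2 kb, against 7.91% of all genes. These were Psmd1, Psme1 and Psme2. Ribosomal protein genes gave 10.5%, complex I genes 13.2% and type 2 genes 58.3%. With 3 genes, the proteasome count is near the share of all genes, and no difference is read from it.

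**Figure D4:**
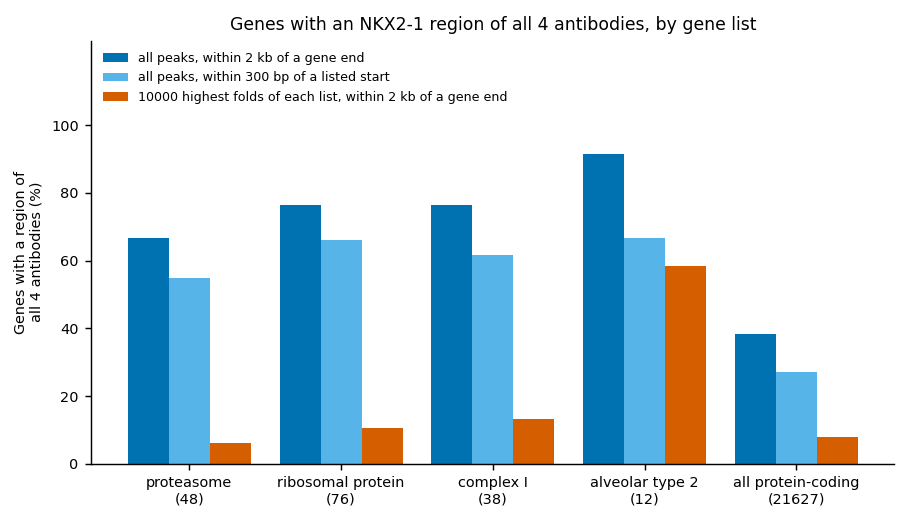
Share of genes (%) with a region of all 4 antibodies, by gene list and by call rule; bars start at 0, the number of genes stands under each list, and the bars for starts count only genes with a listed start. Proteasome genes fall from 66.7% with all peaks to 6.25% with the 10000 highest folds, all genes from 38.4% to 7.91%, and alveolar type 2 genes from 91.7% to 58.3%.

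**Figure D5:**
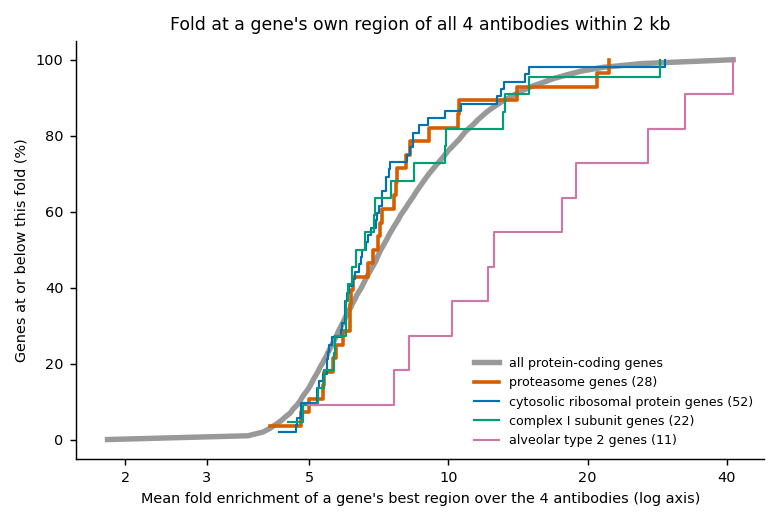
Cumulative share of genes (%) by the mean fold of their best own region of 4 antibodies within 2 kb (log axis), for proteasome genes (28), ribosomal protein genes (52), complex I genes (22), alveolar type 2 genes (11) and all protein-coding genes. The proteasome curve follows the other housekeeping curves and crosses that of all genes, while the type 2 curve lies to the right.

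The input library bears on these folds. Its filtered tags were scaled up by 4.04 to 4.37 to match the libraries, so a summit with 1 input tag has a background of 5.37 for Abcam133737 and one with 2 has 9.74, counting the 1 that the caller adds. Over 31 own regions of the proteasome genes, the background stood at the genome-wide minimum for 20 with Abcam133737, 21 with Millipore07-601, 20 with Abcam76013 and 20 with Abcam133638, which is 64.5% to 67.7%, against 60.2% to 63.6% of all peaks. A background of 2 input tags or more was present at 3, 2, 6 and 1 of these regions (9.68%, 6.45%, 19.4% and 3.23%). The shares of all peaks were 5.19%, 6.42%, 5.42% and 5.48%, so Abcam76013 stood highest above its share. The part of the background in the differences between antibodies at Psmc1 and Psmd11 was not tested beyond the pileups given above.

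Other genes of the pathway, taken from lists fixed with earlier results known, were counted in the same way. Of 8 genes of transcriptional control, 6 had a region of 4 antibodies within 2 kb (all genes 38.4%). The median mean fold was 9.54 over the 5 with an own one. Nfe2l1, which drives proteasome genes when the proteasome is impaired, had 10.3, 16.7, 9.54 and 12.9, and Ngly1, which processes the NFE2L1 protein, had 9.06, 15.2, 11.0 and 8.28. Nfe2l2, the factor of the oxidative stress response, had 11.0, 9.52, 6.70 and 11.0. Each of these 3 had folds above the proteasome genes' median with each antibody. With Abcam133638, Ngly1 lay below the median of all genes, 8.65. The list was not uniform. Stat3 had 9.31, 5.95, 9.32 and 11.9, below the proteasome genes' median with Millipore07-601. Nfe2l3 had 3.55, 5.68, 4.28 and 5.39, below that median with each antibody. Ddi2 and Foxo4 had no region of 4 antibodies within 2 kb, and Nfya had no own one.

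Of 10 matched genes for assembly and proteasome-bound factors, 7 had a region within 2 kb (all genes 38.4%), at a median of 5.10. Of 14 for ubiquitin supply and delivery, 12 had one (all genes 38.4%), and the median was 6.24 over the 10 with an own one. Ubqln1, a shuttle for ubiquitinated proteins, was highest of these at 6.70, 15.9, 9.88 and 16.0. Of 7 genes of MHC class I loading, 5 had a region within 2 kb (all genes 38.4%), at a median of 6.40. Calr, a chaperone of that pathway, had 12.3, 16.1, 11.7 and 16.3, while Tap2 had no peak within 2 kb and B2m had 3 antibodies.

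Letters of the listed promoters were searched on both strands in the 43 windows of the 40 proteasome genes and in all 21044 windows of 17273 genes. The NKX2-1 type motif CAAGTG was in 9.30% of proteasome windows and 13.0% of all, and the second form CTCAAG in 16.3% and 15.0%. Either form was in 25.6% of proteasome windows, 25.1% of all, and 4 of the 19 proteasome windows that held all 4 summits (21.1%). Of all windows with 4 summits 27.4% held one, against 24.6% of the others. Of the windows printed above, only that of Psme3 held either form.

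Some other motifs differed more and some did not. CCGGAAG, of the ETS type, was in 15 of 43 proteasome windows (34.9%) and 11.7% of all windows, with 25.4% of all windows that held 4 summits and 8.74% of the others. The second start of Psma6 held it 3 times and the Psme3 window held it 2 times. AAGATGG, of the YY1 type, was in 16.3% against 6.28%, and GGGCGG, of the SP and KLF type, in 55.8% against 46.7%. The antioxidant response element type TGACNNNGC was in 14.0% against 13.0%, CCAAT in 32.6% against 38.5% and TGACGT, of the CREB and ATF type, in 9.30% against 8.58%. The forkhead type TGTTTAC was in 0 of 43 windows and 3.03% of all. Of all windows with 4 summits, AAGATGG was in 8.99%, GGGCGG in 68.7% and TGACNNNGC in 14.1%. CCAAT was in 47.7% of them, TGACGT in 13.8% and TGTTTAC in 2.42%. Apart from CCGGAAG, only AAGATGG thus had a higher share in proteasome windows than in all windows with 4 summits. Median GC content was 57.3% in proteasome windows, 56.7% in all and 61% in all windows with 4 summits. CTCAAG can overlap CAAGTG, and TGACGT can overlap TGACNNNGC, so 1 stretch may count for both. A match is a description of the letters, not of a bound site.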

How the data were processed

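NKX2-1 ChIP-seq of whole lung was analysed from the deposited peak lists of 4 antibodies, 1 library each. Peak calling by the authors, per the file headers, used MACS 2.1.2 for each antibody against the same input, at a q-value cutoff of 0.05, with an effective genome size of 1.87 Gb and 1 tag kept per position. Per the submitters' processing notes, reads were aligned to mm10. Each deposited line gives the pileup signal in tags at the summit, a fold enrichment ratio of pileup plus 1 to background plus 1, and −log10 of the p-value and of the q-value.

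From these lists, Python 3.11.15 with pandas 2.3.3, numpy 2.4.6 and scipy 1.17.1 merged peaks that overlapped by at least 1 bp, and counted an antibody for a gene where its summit lay within 2 or 10 kb of a gene end. A region was a gene's own where its median summit was nearer to that gene than to any other protein-coding gene. Local background was read back from pileup and fold, and the number of input tags from background and scaling. Gene ends, starts and promoters come from RefSeq tables of assembly GRCm38.p6, and 40 of the 48 genes had a listed start. The 48 genes, the comparison lists and the motifs were chosen with earlier results of these data known. Named with the value of every antibody were the 2 genes of each role with the highest mean within-list percentile of fold at an own region, Psmb5 to Psmb10, Psme1 and Psme2; other genes given with values were chosen after their values were seen. Counting was tested on simulated peaks. Alternatives changed the fold, q-value, distance, overlap and antibodies required. Peak sequences outside the promoter tables were not analysed here.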

Additional observations from a re-analysis of the deposited data

How the results depend on the processing

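With a fold of at least 5 required of every peak, 18 genes had a region of 4 antibodies within 2 kb (16 own) and 24 within 10 kb (17 own), against 22.5% and 37.9% of all genes. With the 10000 highest folds of each list, the counts were 3 (3 own) and 6 (3 own), against 7.91% and 17.1% of all genes, so the proteasome counts were then too few to set apart from all genes. With pileup scaled by each library's filtered tags (tags per 1000000) in place of fold, the median of the own regions was 0.760, which is in another unit and cannot be set against the fold; by antibody the medians were 0.612, 0.848, 0.646 and 0.904, and 0.644, 0.930, 0.646 and 0.938 over all genes. Of 86 alternatives tried for the counts and medians, 12 moved, this one included, and 74 did not. A count or share was called moved only where it changed by more than a factor of 1.5. A median was called moved where it changed by at least 1.36, the standard deviation of the 4 antibodies' medians. By this wide rule a fall from 32 to 24 genes is not called moved. Leaving out 1 antibody gave 32 to 36 genes within 2 kb (28 to 34 own), 38 to 39 within 10 kb (31 to 36 own) and a median fold of 6.54 to 7.38. Fewer antibodies are then required, so counts of any gene list can rise. By distance to a listed start only, 28 of the 40 genes with one had a region within 2 kb (37.5% of all genes with one), and a reciprocal overlap of 50% gave 24 (31.2%). Without Psmd1, Psme1 and Psme2, left out after seeing the data, the median fold was 6.71. Of 528 values for single genes, 70 moved, that is, a region of every antibody used within 2 kb was gained or lost. No paired analysis was possible because each antibody had 1 library and no test was made. The pileups behind the folds are small: at Psmb5, 28 tags with Abcam133737 have an exact 95% Poisson interval of 18.6 to 40.5. The input was shallower than any of the 4 libraries, so its single tags move the background.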
